A study of Mus musculus with 6 samples.

Results

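Collagen genes were taken as the protein-coding genes whose symbol is Col, a number, a and a number, and 44 genes of the mouse annotation met that rule. The tissue sequenced, as poly-A RNA, was the ventral side of the lumbar spinal cord from C57BL/6 mice aged 5 weeks, 3 Gde2KO and 3 wild-type (WT) samples, each a library of its own. Gde2KO mice carry a loss of Gdpd5, the gene of GDE2, a membrane enzyme that cuts the glycolipid anchors of surface proteins. The labels give no allele, sex or litter, and do not say how many animals went into a sample, so the p-values measure only the spread between these samples. Of the 44 collagen genes, 18 had a mean level of at least 1 FPKM and were tested, among 12872 genes tested in all. Another 17 were measured below that level, 2 were assembled in 1 or 2 libraries only, and 7 (Col24a1, Col6a4, Col6a5, Col6a6, Col10a1, Col17a1 and Col7a1) were assembled in no library.

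Collagens are secreted or membrane proteins of the extracellular matrix in which chains wind into a triple helix. The helix needs a glycine in each triplet of residues, since no larger side chain has room at its centre. Fibrillar collagens form the cables of connective tissue, collagen IV forms the mesh of basement membranes, and collagen VI forms beaded filaments at the surface of cells. FACIT collagens attach to fibrils, multiplexins lie at basement membranes, and transmembrane collagens stay in the membrane of the cell that makes them. In the spinal cord, fibrillar collagens are known mainly from the meninges, nerve roots and large vessels, and collagen IV mainly from the blood vessel wall and the outer limiting membrane.

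The glycine repeat can be read in the coding sequence, where glycine is written GGN, and the fibrillar class stands apart from the others by how long it runs without a break. All 44 genes held runs of at least 5 such triplets in the longest GENCODE vM21 coding sequence. The longest unbroken run was 216 to 344 triplets in the 11 fibrillar genes and 39 to 66 triplets in the 6 collagen IV genes. It was 37 to 87 triplets in the 6 collagen VI genes, 32 to 113 in the 9 FACIT genes and 30 in both multiplexins, so the ranges of the classes other than the fibrillar one overlap or lie close. Col4a1 broke its repeat into 16 runs and Col4a2 into 22 runs, whereas Col1a2 held 339 of the 353 triplets that stood in runs in a single one. The stretches of 90 bases below come from the genes with the highest mean level in the fibrillar, collagen VI and collagen IV classes, with GGN codons in capitals. Those of Col1a2 and Col6a2 lie within the longest run, and that of Col4a1 holds the end of its longest run and the bases after it. They lie at positions 636 to 725 of the Col1a2 transcript, 1204 to 1293 of that of Col6a2 and 669 to 758 of that of Col4a1. In the Col4a1 stretch the spacing of the capitals becomes uneven where the run ends.
Col1a2: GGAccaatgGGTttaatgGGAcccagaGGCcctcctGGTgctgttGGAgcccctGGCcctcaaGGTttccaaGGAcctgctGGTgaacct
Col6a2: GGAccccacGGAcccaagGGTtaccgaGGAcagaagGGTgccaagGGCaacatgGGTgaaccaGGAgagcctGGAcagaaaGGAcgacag
Col4a1: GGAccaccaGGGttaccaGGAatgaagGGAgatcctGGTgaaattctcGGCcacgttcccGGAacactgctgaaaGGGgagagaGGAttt

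Several collagen genes lie head to head in pairs, and of the collagen IV pairs only the closest, Col4a1 and Col4a2, had both genes tested. Col4a1 (chromosome 8, 11198423 to 11312826, minus strand, GRCm38) and Col4a2 (chromosome 8, 11312805 to 11449287, plus strand) overlap by 22 bases at their starts. Col4a3 and Col4a4 lie 71 bases apart and Col4a5 and Col4a6 lie 1308 bases apart. RefSeq promoter windows on GRCm38.p6, which hold 300 bases around a transcript start, were found for 35 of the 44 genes. The windows of Col4a1 (chr8:11312777-11313076, minus strand) and Col4a2 (chr8:11312555-11312854, plus strand) share 78 bases, shown in capitals, which read as reverse complements of each other. The window of Col1a2 (chr6:4505368-4505667, plus strand) stands beside them as that of the collagen with the highest level, with CCAAT and its reverse complement ATTGG in capitals.
Col4a1: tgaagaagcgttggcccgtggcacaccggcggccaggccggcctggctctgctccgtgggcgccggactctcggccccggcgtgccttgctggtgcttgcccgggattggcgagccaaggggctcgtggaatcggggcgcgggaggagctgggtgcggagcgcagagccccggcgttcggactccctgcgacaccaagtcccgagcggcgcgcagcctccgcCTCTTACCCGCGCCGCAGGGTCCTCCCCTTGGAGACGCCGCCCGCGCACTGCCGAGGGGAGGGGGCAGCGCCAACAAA
Col4a2: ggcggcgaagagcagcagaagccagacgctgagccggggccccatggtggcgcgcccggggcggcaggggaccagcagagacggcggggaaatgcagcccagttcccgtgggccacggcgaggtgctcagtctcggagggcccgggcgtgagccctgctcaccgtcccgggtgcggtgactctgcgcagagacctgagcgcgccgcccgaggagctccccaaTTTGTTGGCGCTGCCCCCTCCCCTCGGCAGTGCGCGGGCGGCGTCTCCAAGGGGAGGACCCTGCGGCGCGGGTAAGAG
Col1a2: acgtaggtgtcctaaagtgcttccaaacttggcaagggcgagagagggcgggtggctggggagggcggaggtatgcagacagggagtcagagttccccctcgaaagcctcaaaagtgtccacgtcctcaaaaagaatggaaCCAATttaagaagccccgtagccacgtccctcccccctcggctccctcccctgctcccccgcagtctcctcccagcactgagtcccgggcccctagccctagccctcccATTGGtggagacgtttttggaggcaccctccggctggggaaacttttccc

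Over both strands, GGGCGG was found in 23 of 38 collagen windows and in 35.7% of 32851 windows of all genes. The motif CCAAT was found in 13 collagen windows and in 37.4% of all windows, and TATAAA in 5 collagen windows and in 13.6% of all windows. The windows of Col4a1, Col4a2 and Col1a2 each held GGGCGG and CCAAT on one strand or the other. These letters are matches only, and no binding was measured.

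Libraries were alike in size, with 31899 to 33791 assembled transcripts and a relative depth of 0.91 to 1.14. Gdpd5 had 1.24, 1.197 and 0.946 FPKM in the Gde2KO libraries, against 5.38, 6.54 and 5.95 FPKM in the WT libraries, with no overlap. Gde2KO replicate 3 stood apart over all genes, being the lowest library for 25.9% of them and the highest for 26.8%. Gde2KO replicate 1 alone held the Y-linked gene Ddx3y (21.5 FPKM summed over transcripts, against 0 in the other 5 libraries). Xist, a transcript typical of female cells, was at 0 in that library and at 5.28 to 14.96 FPKM in the other 5. By these genes that library alone read as male and the other 5 as female. The part of sex in its collagen values was not tested, since no other library shared its pattern. Over the collagens it was replicate 1 of Gde2KO that stood apart, so the tested collagens are given per library and their differences also without it.

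The 18 tested collagens did not pass the test between the genotypes, and for most of them the lowest of the 6 libraries was Gde2KO replicate 1. With limma over all genes, 0 of 18 collagens had an adjusted p under 0.05, against a background of 0.117% of genes (15 of 12872), and the smallest adjusted p of a collagen was 0.883. An unadjusted p under 0.05 was reached by 2 of 18, Col4a1 and Col4a2, against 3.89% of all genes, and both were lower in Gde2KO, where the background for that direction was 2.24%. The libraries of the genotypes did not overlap for 2 of 18, Col4a1 and Col5a2, against 10.8% of all genes, and both were lower in Gde2KO, where the background was 5.77% for lower and 5.07% for higher. The log2 difference, Gde2KO minus WT, was below 0 for 15 of 18 collagens, with a median of -0.18, against 49.9% of all genes with a median of 0.00. Without Gde2KO replicate 1 it was below 0 for 13 of 18, with a median of -0.04.

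**Figure D1:**
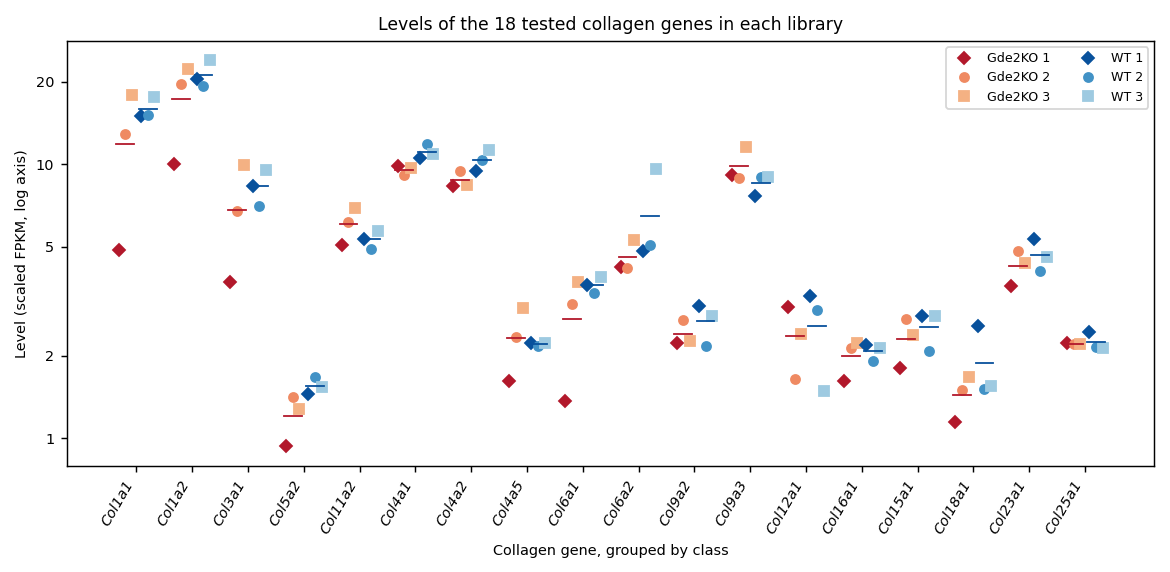
Level of each of the 18 tested collagen genes in each library, as scaled FPKM on a log axis, with Gde2KO libraries in red and orange, WT libraries in blue, and a short line at the mean of each genotype. Gde2KO replicate 1, the dark red diamond, lies lowest for 11 of the 18 genes, while the 6 points of Col25a1 lie between 2.14 and 2.44 FPKM.

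Summed over the 44 genes, collagen levels were 80.3, 112 and 129 FPKM in Gde2KO libraries, against 123, 116 and 133 FPKM in WT libraries. The means were 107 ± 24.7 FPKM in Gde2KO and 124 ± 8.86 FPKM in WT (SD, n = 3 each). Only Gde2KO replicate 1 lay clearly below the other 5, which ran from 112 to 133 FPKM. Replicate 1 of Gde2KO was the lowest library for 11 of the 18 tested collagens (61.1%), against 14.8% of all genes tested, and the highest for 0 of 18. Counting also the 17 low genes, it was lowest or tied for lowest for 23 of 35 (65.7%). The ties were Col4a3 and Col13a1, which were listed at 0 both there and in a WT library. The share over all genes was not computed with low genes included. The median deviation of the 18 genes from the mean of the other 5 libraries was -0.38 on the log2 scale in Gde2KO replicate 1. It lay between -0.04 and 0.16 in the other 5 libraries. For all genes the same median was 0.01 in every library.

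**Figure D2:**
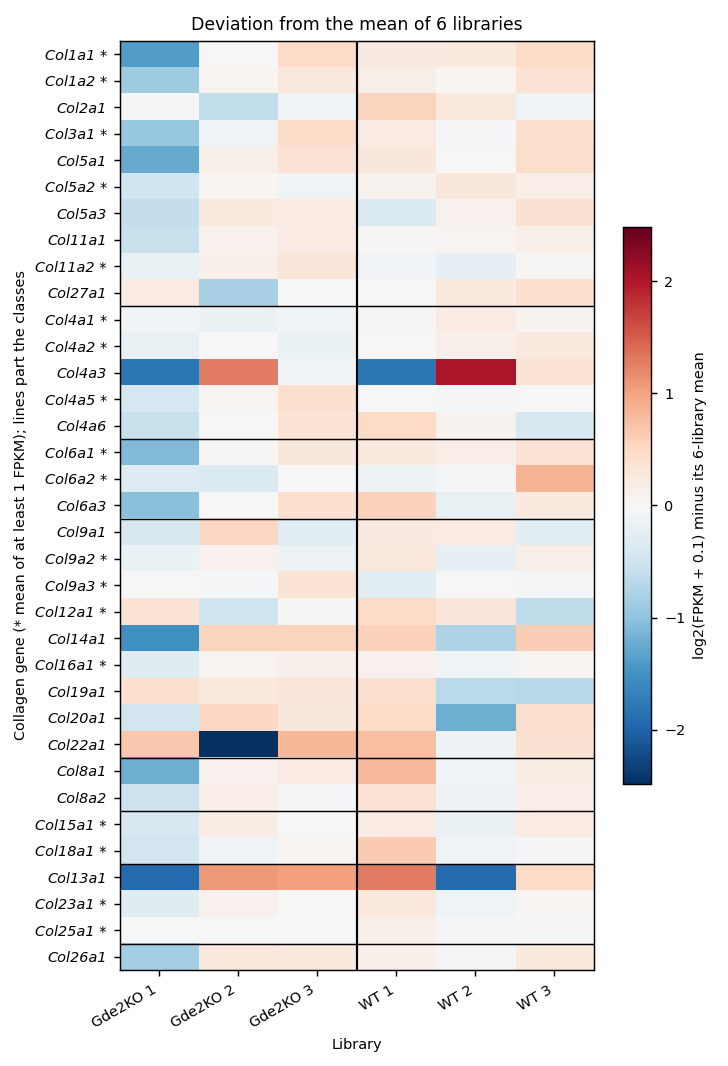
Deviation of each of 35 measured collagen genes from its mean over the 6 libraries, on the log2(FPKM + 0.1) scale, with Gde2KO libraries left of the upright line, WT libraries right of it, and level lines between the classes. The column of Gde2KO replicate 1 is blue for most fibrillar and collagen VI genes and pale for Col4a1, Col4a2 and Col9a3, and the strongest colours elsewhere belong to genes listed at 0 in some library.

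Among the fibrillar collagens the highest levels were those of collagen I, the main fibre of connective tissue, whose chains come from Col1a1 and Col1a2. Col1a1 (chromosome 11, 94936224 to 94953042, plus strand) had 4.85, 12.8 and 17.9 FPKM in Gde2KO libraries, against 14.96, 15.1 and 17.6 FPKM in WT libraries. Gde2KO replicate 1 was the low library, Gde2KO replicate 3 was the highest of the 6, and the genotypes overlapped. The means were 11.9 ± 6.60 FPKM in Gde2KO and 15.9 ± 1.51 FPKM in WT, a log2 difference of -0.60 (SE 0.48, 95% interval -1.82 to 0.61; limma adjusted p = 0.883). Without replicate 1 of Gde2KO the difference was -0.06. Col1a2 (chromosome 6, 4504814 to 4541544, plus strand) had 10.01, 19.6 and 22.3 FPKM in Gde2KO libraries, against 20.5, 19.3 and 24.0 FPKM in WT libraries. It showed the same single low library, with a log2 difference of -0.37 over all libraries and -0.02 without it (limma adjusted p = 0.883 over all).

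Col3a1, which forms the collagen III of pliable tissue and vessel walls, had 3.72, 6.74 and 9.94 FPKM in Gde2KO libraries, against 8.34, 7.05 and 9.50 FPKM in WT libraries. The genotypes overlapped, and the log2 difference of -0.38 became -0.01 without Gde2KO replicate 1. Col5a2, a chain of the collagen V that starts fibrils, had 0.934, 1.41 and 1.28 FPKM in Gde2KO libraries, against 1.44, 1.67 and 1.53 FPKM in WT libraries. Every Gde2KO library was below every WT library, at 0.785-fold over all libraries (limma adjusted p = 0.883), with a log2 difference of -0.35 over all libraries and -0.19 without replicate 1. Col11a2, a chain of collagen XI known mainly from cartilage, went the other way, with 5.05, 6.13 and 6.94 FPKM in Gde2KO libraries, against 5.33, 4.92 and 5.72 FPKM in WT libraries. Its libraries overlapped, and its 1.13-fold difference did not pass (limma adjusted p = 0.883). The log2 difference of 0.17 became 0.29 without Gde2KO replicate 1 and 0.07 without Gde2KO replicate 3.

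The chains of collagen I did not shift by the same factor in the low library. The ratio of Col1a1 to Col1a2 was 0.484, 0.656 and 0.804 in Gde2KO libraries, against 0.731, 0.785 and 0.735 in WT libraries. The lowest ratio was that of Gde2KO replicate 1, and the genotypes overlapped. The ratio of Col3a1 to Col1a2 stayed between 0.345 and 0.445 in all 6 libraries, with replicate 1 of Gde2KO in the middle at 0.372. As levels per length in a bulk tissue, these values cannot tell fewer cells of a type from less RNA per cell.

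Collagen IV held the 2 collagens with the smallest p, and here the low values were not those of a single library. Col4a1, which with Col4a2 makes the collagen IV of nearly all basement membranes, had 9.83, 9.13 and 9.65 FPKM in Gde2KO libraries, against 10.5, 11.8 and 10.9 FPKM in WT libraries. All 3 Gde2KO libraries lay below all 3 WT libraries, with Gde2KO replicate 1 the highest of its group. The means were 9.54 ± 0.363 FPKM in Gde2KO and 11.1 ± 0.690 FPKM in WT (SD, n = 3 each), a fold of 0.863. The log2 difference was -0.21 (SE 0.07, 95% interval -0.39 to -0.04; limma adjusted p = 0.883), and -0.23 without replicate 1 of Gde2KO.

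Col4a2 had 8.34, 9.44 and 8.42 FPKM in Gde2KO libraries, against 9.43, 10.4 and 11.3 FPKM in WT libraries. The genotypes met at Gde2KO replicate 2 and WT replicate 1, which were almost equal, and the other Gde2KO libraries lay below all WT libraries. The means were 8.73 ± 0.613 FPKM in Gde2KO and 10.4 ± 0.918 FPKM in WT, a fold of 0.845 and a log2 difference of -0.24 (SE 0.09, 95% interval -0.47 to -0.01; limma adjusted p = 0.883). Without Gde2KO replicate 1 the difference was -0.21. With WT replicate 2 or WT replicate 3 left out, 0 of the 18 collagens had an unadjusted limma p under 0.05. Neither gene passed the adjusted threshold, and the way in which a gene's pieces are added up mattered for both. A plain sum of transcript values gave 0.34 for Col4a1 and -1.49 for Col4a2 on the log2 scale. Col4a2 was assembled as 1 transcript of 48 exons with the annotated chain of introns in all 3 Gde2KO libraries, against 2, 3 and 2 pieces in the WT libraries, and a plain sum adds the pieces.

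Vessel-cell markers were listed beside collagen IV, since endothelial and mural cells are known makers of it. Summed endothelial markers (12 of 12 tested, 10 with a log2 difference below 0) were 145, 140 and 140 FPKM in Gde2KO libraries, against 131, 144 and 140 FPKM in WT libraries. Summed mural cell markers (11 of 12 tested, 6 below 0 and 5 above) were 112, 121 and 121 FPKM in Gde2KO libraries, against 137, 121 and 126 FPKM in WT libraries. Cnn1 had too few bases assembled in 3 or more libraries to be given a level. The sums of the genotypes overlapped for both lists. Ly6c1 had the highest level of the endothelial list in every library and so weighed most in its sum. It had 54.2, 53.0 and 52.0 FPKM in Gde2KO libraries, against 27.2, 51.1 and 48.5 FPKM in WT libraries. Its low value in WT replicate 1 lowered that WT sum, while 10 of the 12 endothelial markers were lower in Gde2KO. Without overlap of the genotypes, 3 endothelial and 3 mural markers were lower, among them the receptor genes Kdr (0.663-fold) and Pdgfrb (0.736-fold), and the endothelial marker Ly6c1 was higher (1.30-fold), each with a limma adjusted p of 0.883. Of all genes, 5.77% were lower and 5.07% higher without overlap. The part of these cells in the collagen IV values was not tested.

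Col4a5, whose chain joins those of Col4a3 and Col4a4 or that of Col4a6, had 1.62, 2.35 and 2.98 FPKM in Gde2KO libraries, against 2.22, 2.17 and 2.23 FPKM in WT libraries. Gde2KO libraries held both the lowest and the highest value, and the log2 difference was 0.03 over all libraries, 0.25 without replicate 1 of Gde2KO and -0.17 without replicate 3. Col4a3, under 1 FPKM on average, was listed at 0, 0.740 and 0.230 FPKM in Gde2KO libraries, against 0, 1.32 and 0.343 FPKM in WT libraries. Each genotype thus held a library at 0. Col4a4 was assembled in Gde2KO replicate 2 alone, and Col4a6 lay between 0.2998 and 0.725 FPKM.

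Both tested chains of collagen VI, which links cells to the surrounding fibres, had a lower mean in Gde2KO. Col6a1 (chromosome 10, 76708792 to 76726168, minus strand) had 1.37, 3.10 and 3.71 FPKM in Gde2KO libraries, against 3.61, 3.39 and 3.89 FPKM in WT libraries. Gde2KO replicate 1 was low and the other Gde2KO libraries lay among or near the WT libraries. The log2 difference was -0.51 (SE 0.37, 95% interval -1.42 to 0.40; limma adjusted p = 0.883) and -0.09 without that library. This gene is the clearest view of the low library, because in all 6 libraries it was assembled as a single transcript of 35 exons with the annotated introns. The authors' bounds for that transcript in Gde2KO replicate 1 were 1.18 to 1.53 FPKM, and the lowest bound of the other 5 libraries was 2.84 FPKM. Such bounds cover the error within a library only and hold no variation between samples.

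Col6a2, the partner chain, had 4.21, 4.18 and 5.31 FPKM in Gde2KO libraries, against 4.81, 5.08 and 9.58 FPKM in WT libraries. Here WT replicate 3 was the high library and no Gde2KO library stood alone, so the log2 difference of -0.43 (limma adjusted p = 0.883) was -0.38 without Gde2KO replicate 1 and -0.12 without WT replicate 3. Col6a3, the long chain of collagen VI, was just under the level tested, with 0.369, 0.857 and 1.18 FPKM in Gde2KO libraries, against 1.32, 0.748 and 1.03 FPKM in WT libraries. Replicate 1 of Gde2KO was again the low one and the genotypes overlapped.

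**Figure D3:**
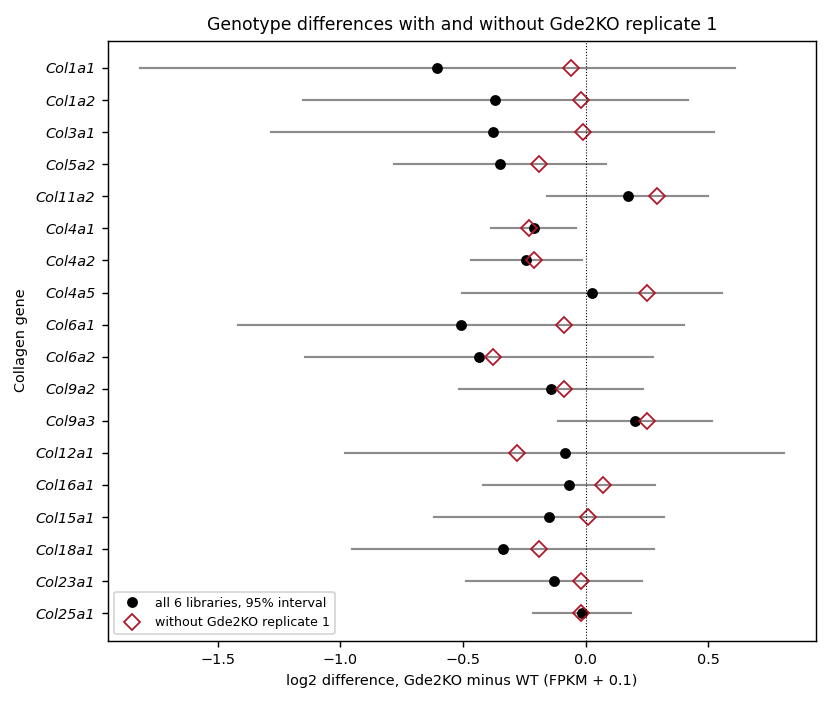
Log2 difference, Gde2KO minus WT, on the log2(FPKM + 0.1) scale, for the 18 tested collagens, with the 95% limma interval over all 6 libraries (black) and the value without Gde2KO replicate 1 (open diamonds). Col1a1, Col1a2, Col3a1 and Col6a1 move to between -0.09 and -0.01 without that library, while Col4a1 and Col4a2 stay at -0.23 and -0.21.

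The FACIT collagens differed in direction among themselves. Col9a3, a chain of the collagen IX that coats fibrils, had 9.12, 8.93 and 11.5 FPKM in Gde2KO libraries, against 7.62, 9.01 and 8.98 FPKM in WT libraries. The libraries overlapped, Gde2KO replicate 3 was the high one, and the fold of 1.15 did not pass (limma adjusted p = 0.883). The log2 difference of 0.20 became 0.25 without Gde2KO replicate 1, 0.08 without Gde2KO replicate 3 and 0.12 without WT replicate 1. Its partner Col9a2 had 2.22, 2.70 and 2.26 FPKM in Gde2KO libraries, against 3.04, 2.16 and 2.80 FPKM in WT libraries, and also overlapped, with a log2 difference of -0.14 over all libraries and -0.09 without Gde2KO replicate 1. The ratio of Col9a3 to Col9a2 ran from 2.51 to 5.10 over the libraries. Col12a1, which binds to fibril surfaces, had 3.01, 1.65 and 2.41 FPKM in Gde2KO libraries, against 3.30, 2.93 and 1.48 FPKM in WT libraries. It spread widely in both genotypes, and its log2 difference of -0.09 became -0.28 without Gde2KO replicate 1, 0.14 without Gde2KO replicate 2, 0.13 without WT replicate 1, 0.04 without WT replicate 2 and -0.43 without WT replicate 3. Col16a1 had 1.62, 2.13 and 2.23 FPKM in Gde2KO libraries, against 2.195, 1.92 and 2.13 FPKM in WT libraries, with overlap and a log2 difference of -0.07 that became 0.07 without replicate 1 of Gde2KO.

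The multiplexins lie in the basement membrane zone. Col15a1 had 1.81, 2.72 and 2.39 FPKM in Gde2KO libraries, against 2.78, 2.09 and 2.79 FPKM in WT libraries. Col18a1, whose end piece is known as endostatin, had 1.14, 1.504 and 1.67 FPKM in Gde2KO libraries, against 2.58, 1.51 and 1.55 FPKM in WT libraries. Both were lowest in Gde2KO replicate 1 and overlapped between the genotypes, at 0.902-fold and 0.791-fold (limma adjusted p of 0.884 and 0.883). The log2 difference of Col15a1, -0.15, became 0.01 without that library. That of Col18a1, -0.34, became -0.19 without it and -0.10 without WT replicate 1.

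Transmembrane collagens held the steadiest gene. Col25a1, known from neurons and from amyloid plaques, had 2.23, 2.21 and 2.203 FPKM in Gde2KO libraries, against 2.44, 2.15 and 2.14 FPKM in WT libraries. The libraries overlapped, and the log2 difference was -0.02 with a 95% limma interval of -0.22 to 0.19, and was also -0.02 without Gde2KO replicate 1. Its SD over the 6 libraries on the log2 scale was 0.0654, smaller than that of all but 10.9% of genes. The SD of Col1a1 was 0.702, larger than that of 93.7% of genes, and 0.197 without Gde2KO replicate 1. Col23a1 had 3.59, 4.801 and 4.37 FPKM in Gde2KO libraries, against 5.32, 4.09 and 4.58 FPKM in WT libraries, with overlap, and its log2 difference of -0.13 became -0.02 without Gde2KO replicate 1 and -0.03 without WT replicate 1. Over the 18 collagens the median SD was 0.258, against 0.145 over all genes, and without replicate 1 of Gde2KO it was 0.179, against 0.144.

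Low collagens repeated the pattern of the abundant fibrillar genes in part. Col14a1, a FACIT collagen of connective tissue, had 0.0664, 0.608 and 0.606 FPKM in Gde2KO libraries, against 0.610, 0.182 and 0.633 FPKM in WT libraries. Gde2KO replicate 1 lay at 0.126 of the mean of the other 5 libraries. The same ratio was 0.284 for Col5a1, 0.288 for Col8a1, a short-chain collagen of vessel walls, and 0.410 for Col26a1. On fragments per gene, in which length is no divisor, Col26a1 was instead highest there, at 2.05 against 1.55 to 1.93. Other low genes did not follow, with ratios of 1.43 for Col19a1, 1.42 for Col22a1, 1.19 for Col27a1 and 0.933 for Col2a1. Col22a1 was listed at 0 in Gde2KO replicate 2, and that 0 enters its ratio. On fragments per gene, Gde2KO replicate 1 lay within the range of the other 5 libraries for each of these genes. It had 1.56 against 1.04 to 1.89 for Col19a1, 0.719 against 0 to 1.17 for Col22a1 and 1.29 against 0.620 to 2.59 for Col27a1. The ratio was 0.309 for Col1a1, 0.386 for Col6a1 and 0.448 for Col3a1 among the tested genes, against 0.945 for Col4a1, 0.991 for Col9a3 and 0.999 for Col25a1. Col13a1 was listed at 0, 0.698 and 0.676 FPKM in Gde2KO libraries, against 0.825, 0 and 0.428 FPKM in WT libraries. No fold between the genotypes is given for a gene listed at 0, where assembly may have failed. The tested genes just above the level were Col5a2 (mean 1.38 FPKM), Col18a1 (1.66) and Col16a1 (2.04), and those just below were Col8a2 (0.958), Col6a3 (0.918) and Col5a1 (0.868).

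**Figure D4:**
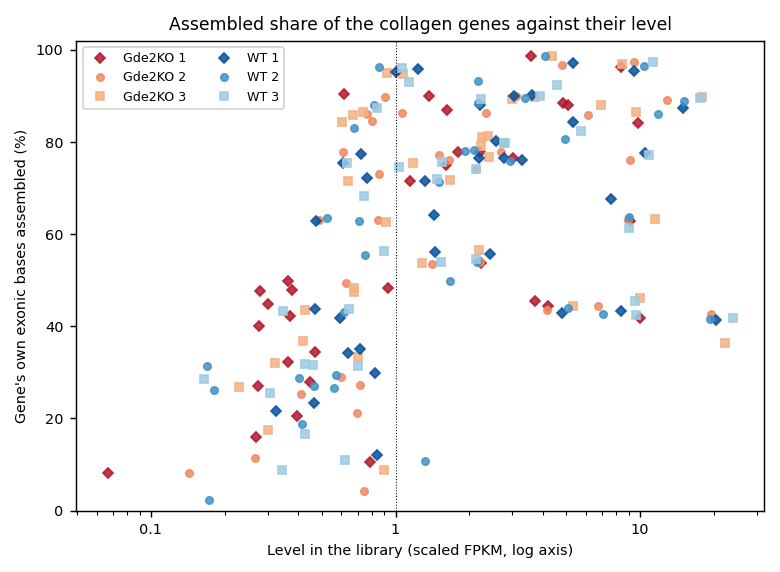
Share of each collagen gene's own exonic bases that were assembled in a library, in percent, against its level in that library as scaled FPKM on a log axis, with the dotted line at the tested mean level of 1 FPKM. Points at the lower left are sparsely assembled low genes, and Col1a2 sits between 36.3% and 42.7% at 10.01 to 24.0 FPKM, with 5260 counted bases of 12426 annotated exonic bases of its own.

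Most tested markers of meningeal fibroblasts, the matrix-making cells of the membranes around the cord, were lowest in Gde2KO replicate 1, the low library of the fibrillar collagens. Summed meningeal fibroblast markers (14 of 18 measured) were 72.9, 141 and 122 FPKM in Gde2KO libraries, against 127, 123 and 157 FPKM in WT libraries. Omd, Igf2, Slc22a6 and Slc47a1 had too few bases of their own assembled in 3 or more libraries to be given a level. All 10 tested markers had a log2 difference below 0, against 49.9% of all genes, and 0 passed (smallest limma adjusted p 0.883). Of these, 7 were lowest in Gde2KO replicate 1, against 14.8% of all genes. Igfbp2 and Foxc1 were instead lowest in Gde2KO replicate 2, and Fmod in Gde2KO replicate 3. Aspn, measured but not tested, had 0.751 FPKM in Gde2KO replicate 1, against 0.504 to 0.777 FPKM in the other libraries. Dcn, Lum and Fmod of this list also stand in a collagen partner list. Replicate 1 of Gde2KO had the lowest sum of the 6 libraries, and the other 5 overlapped between the genotypes. Mgp, Igfbp2 and Dcn weighed most in that sum. Of the 10 tested markers, 2 were lower in Gde2KO without overlap, against 5.77% of all genes. They were Slc6a13 (0.609-fold) and Aldh1a2 (0.594-fold), each with a limma adjusted p of 0.883. For these genes the low values were not those of a single library. Prx, a gene of peripheral myelin and so of the nerve roots, had 1.11, 9.30 and 10.01 FPKM in Gde2KO libraries, against 4.71, 3.40 and 10.02 FPKM in WT libraries. Gde2KO replicate 1 was also lowest for the Schwann cell genes Ncmap and Drp2, but not for Pmp22, Cdh19 or Mlip. The part of meningeal and root tissue in the collagen values was not tested.

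**Figure D5:**
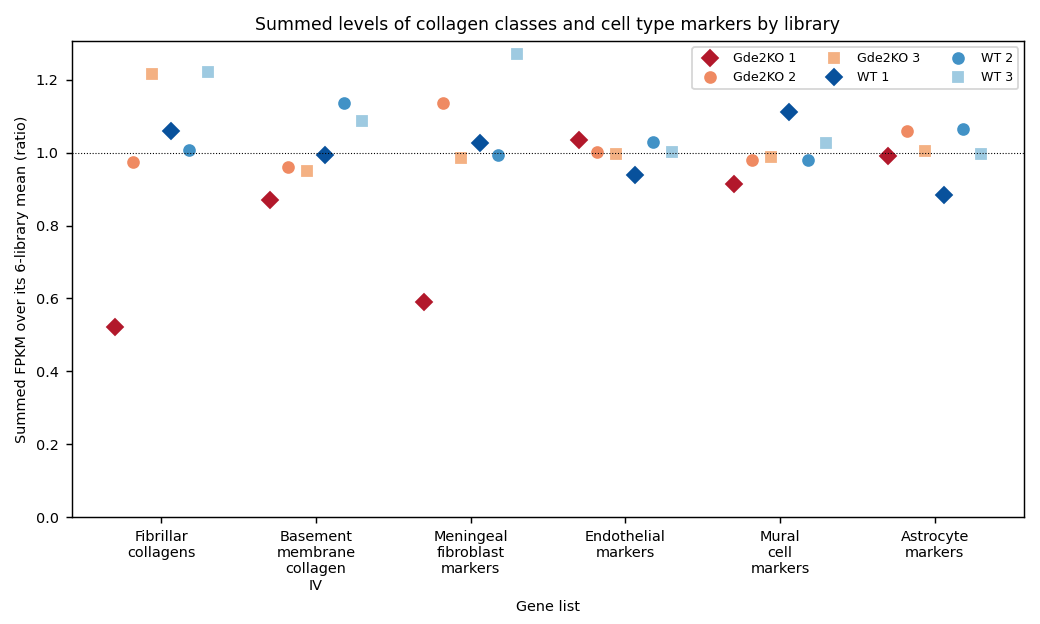
Summed FPKM of collagen classes and of cell type markers in each library, as a ratio to the mean of the 6 libraries, with Gde2KO libraries left of WT libraries. The dark red diamond of Gde2KO replicate 1 lies near 0.5 to 0.6 for the fibrillar collagens and meningeal fibroblast markers, and near 1 for endothelial and astrocyte markers.

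Summed fibrillar levels were 26.4, 49.4 and 61.7 FPKM in Gde2KO libraries, against 53.7, 51.1 and 61.9 FPKM in WT libraries. Summed collagen IV levels were 20.1, 22.1 and 21.9 FPKM in Gde2KO libraries, against 22.9, 26.2 and 25.1 FPKM in WT libraries. Fibrillar sums of the genotypes overlapped with 1 low library, whereas the collagen IV sums did not overlap, though the highest Gde2KO sum of 22.1 FPKM lay close to the lowest WT sum of 22.9 FPKM. The FACIT sums of 17.9, 17.8 and 21.3 FPKM in Gde2KO libraries overlapped with those of 19.3, 17.4 and 17.9 FPKM in WT libraries.

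Genes that make, trim, bind and break down collagen were compared in the same fit. Of 84 listed partner genes 68 were tested, 43 with a lower and 25 with a higher mean in Gde2KO, 0 passed and 5 had an unadjusted limma p under 0.05, against 3.89% of all genes. The median log2 difference was -0.05 over the 68, against 0.00 over all genes. Among 21 synthesis genes, 12 were higher and 9 lower. Serpinh1, the chaperone HSP47 that holds the newly made triple helix, had 12.2, 12.5 and 14.3 FPKM in Gde2KO libraries, against 18.6, 17.6 and 16.9 FPKM in WT libraries. The genotypes did not overlap, at 0.733-fold (limma adjusted p = 0.632). P4ha3, a subunit of a prolyl hydroxylase of collagen, had 6.83, 6.63 and 5.65 FPKM in Gde2KO libraries, against 5.65, 5.08 and 5.44 FPKM in WT libraries, at 1.18-fold.

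Of 14 secretion, trimming and cross-linking genes, 9 had a lower and 5 a higher mean in Gde2KO, and their median log2 difference was -0.18. Loxl1, an oxidase that cross-links elastin and collagen, had 1.68, 1.86 and 1.72 FPKM in Gde2KO libraries, against 2.90, 2.63 and 2.43 FPKM in WT libraries. The genotypes did not overlap, at 0.674-fold (limma adjusted p = 0.457). Bgn, a small proteoglycan that binds fibrils, had 17.5, 23.7 and 21.4 FPKM in Gde2KO libraries, against 26.0, 27.2 and 24.4 FPKM in WT libraries, at 0.802-fold. Without Gde2KO replicate 1 the log2 differences of Serpinh1, Loxl1 and Bgn, -0.45, -0.57 and -0.32 over all libraries, were -0.40, -0.54 and -0.20.

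Among 8 tested receptors 7 were lower, with Cd44 at 0.849-fold, Ddr1, a collagen-binding kinase, at 0.918-fold, and Mrc2, which takes up collagen, at 0.875-fold. Among 12 breakdown genes 7 were lower and 5 higher. Timp4, an inhibitor of matrix proteases, had 41.1, 42.6 and 42.7 FPKM in Gde2KO libraries, against 27.9, 37.3 and 31.6 FPKM in WT libraries. All Gde2KO libraries lay above all WT libraries, at 1.31-fold (limma adjusted p = 0.883). Reck and Mmp2, next by p, were lower without overlap, at 0.870-fold and 0.857-fold (limma adjusted p = 0.883 for each). Without overlap, 5.77% of all genes were lower and 5.07% higher. Of 13 other basement membrane genes 11 were lower, with Fn1, the gene of fibronectin, at 0.821-fold and Lama4, a laminin chain of vessels, at 0.786-fold. With the plain sum of transcripts the log2 differences of Mrc2 and Fn1 were 0.04 and 0.38, on the other side of 0. These shares stand beside the 49.9% of all genes below 0.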

How the data were processed

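Poly-A RNA was sequenced from 3 Gde2KO and 3 WT samples. Per the submitters' processing notes, TopHat2 2.1.1, Cufflinks 2.2.1, Cuffdiff 2.2.1 and FastQC (version not given in the sources used here) were used with mm10. Each deposited file is 1 library's Cufflinks assembly, and the authors made its FPKM values (fragments scaled to length and library size) and their bounds, which stand in a text column, and a score column that was not used. Transcripts of at least 200 exonic bases were matched to GENCODE vM21 by exon overlap on the same strand. A gene's level was the FPKM summed at each of its own exonic bases assembled in at least 3 of the 6 libraries, averaged over those bases. Strandless transcripts (13.1% to 14.1%) counted only where no other gene had an exon on the facing strand. The test took the 12872 genes that had 200 or more counted bases and a mean of 1 FPKM or more. Levels were scaled by median-of-ratios factors (0.989 to 1.04).

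Values were tested as log2(FPKM + 0.1) in limma 3.58.1 (R 4.3.3), with a trend and robust moderation, two-sided, with Benjamini-Hochberg adjustment over all genes tested and a threshold of 0.05. Folds are on that scale, which understates changes of low genes. Replicate numbers are only names, since same-numbered libraries did not deviate together (correlations of 0.010, 0.035 and -0.067 over 12872 genes). The deposited values give no counts, so only relative depth is known. The collagen genes and all lists were chosen with earlier results of these data known. Named genes were every collagen with at least 1 FPKM on average, and of each partner list up to 3 with the smallest p. Low collagens and marker genes given beyond that were chosen after their values were seen. Some marker lists and genes that were also computed are not reported here. The alternatives tried are listed with their effects after the results.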

Additional observations from a re-analysis of the deposited data

How the results depend on the processing

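Under the 22 alternatives 0 collagens and 0 partner genes passed in any fit. The number of all genes passing, 15 in limma, was 4 with a pseudocount of 0.01, 1 with a mean of at least 5 FPKM, 9 with fragments per gene, 4 with bases assembled in all 6 libraries, 4 with zeros as missing, 2 with the replicate block, 10 to 25 with 1 library left out (25 without Gde2KO replicate 3 and 23 without Gde2KO replicate 2 or WT replicate 2) and 62 without Gde2KO replicates 1 and 3 together, a fit with 1 Gde2KO library that is assumed to vary like the WT libraries. Collagens with an unadjusted limma p under 0.05, 2 in the main fit, numbered 0 with the replicate block, without WT replicate 2 and without WT replicate 3. There was 1 without Gde2KO replicate 2 or Gde2KO replicate 3, and there were 2 without Gde2KO replicate 1 or WT replicate 1. The median log2 difference of collagens, -0.18, was -0.43 with the plain sum of transcripts and -0.26 to -0.04 with 1 library left out.

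Sign changed, without a call on either side, for Col4a5 (-0.01 without scaling, -0.00 without Gde2KO replicate 2, -0.17 without Gde2KO replicate 3), Col25a1 (0.02 with quantile normalization, 0.04 without WT replicate 1) and Col12a1 (0.14 without Gde2KO replicate 2, 0.13 and 0.04 without WT replicate 1 and 2). With the plain sum it changed for Col11a2 (-0.07), Col16a1 (1.23), Col4a1 (0.34), Fn1 (0.38), Mrc2 (0.04) and Plod2 (-0.37). Without Gde2KO replicate 1, Col15a1 was 0.01 and Col16a1 0.07. With Gde2KO replicate 2 alone against WT, which checks no spread within Gde2KO, Col15a1 was 0.10, Col16a1 0.04, Col23a1 0.05 and Col9a2 0.03. With 1 library left out, the range was -0.17 to 0.25 for Col4a5, -0.05 to 0.04 for Col25a1, -0.43 to 0.14 for Col12a1, -0.28 to 0.01 for Col15a1 and -0.15 to 0.07 for Col16a1. The cause of each change was not tested.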

Other observations

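Collagen genes known mainly from cartilage were also read in these libraries. Col2a1, the main collagen of cartilage, had 0.448, 0.267 and 0.418 FPKM in Gde2KO libraries, against 0.716, 0.571 and 0.428 FPKM in WT libraries. Of 10 cartilage and bone markers, Comp, Matn3, Chad, Ibsp and Bglap had too few bases assembled in 3 or more libraries to be given a level. Acan, which perineuronal nets also hold, lay between 4.75 and 5.73 FPKM. The others were present in every library, Hapln1 at 1.96 to 2.92 FPKM, Cnmd at 1.14 to 1.61 FPKM, Sp7 at 0.643 to 1.35 FPKM and Matn1 at 0.147 to 0.492 FPKM. Col11a2, Col9a2 and Col9a3 exceeded Col2a1 in every library.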
